A study of Mus musculus with 7 samples.

Results

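The genes described here encode proteins through which stromal cells can restrain immune cells: the checkpoint ligands Cd274, Pdcd1lg2 and Cd276, the ectonucleotidases Nt5e and Entpd1, and the galectins Lgals1, Lgals3 and Lgals9. They were taken by symbol from a table of raw counts, in which these 8 genes were 8 of 24421 rows. In fibroblasts sorted from mouse breast tumors (pCAF), Cd276, Nt5e and Lgals1 were higher than in stroma of the normal mammary fat pad (NMF), and Cd274 and Entpd1 were lower. Lgals3 and Lgals9 did not pass the test, and Pdcd1lg2 had no count in any library.

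Checkpoint ligands of the B7 family sit on a cell's surface and bind receptors on T cells. Cd274 (PD-L1) and Pdcd1lg2 (PD-L2) are both ligands of PD-1 and damp T cell activation, and interferon gamma is a well-known inducer of Cd274; Cd276 (B7-H3) belongs to the same family and its receptor is less settled. Entpd1 (CD39) and Nt5e (CD73) act in sequence outside the cell: Entpd1 breaks ATP and ADP down to AMP, and Nt5e turns AMP into adenosine, which inhibits T cells through adenosine receptors. Galectins bind beta-galactoside sugars on cell-surface glycoproteins; galectin-1 and galectin-9 can drive T cell death, and galectin-3 forms lattices that hold receptors apart.

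The study asked how cancer-associated fibroblasts differ from their normal counterparts in the BALB/c mouse, and it sequenced the 3' ends of polyadenylated RNA from sorted cells. The 3 pCAF libraries came from tumors of 4T1-luc, a mouse mammary carcinoma line carrying luciferase, after 100000 cells had been placed in the mammary fat pad of females. Tumors were taken at 1 cm, and cells negative for Ter119, CD45 and EpCAM and positive for podoplanin (PDPN) were sorted; the labels give an age of 8 weeks, which is also the age at injection. The 4 NMF libraries came from untreated fat pads of mice labelled 12 weeks old, which the study's design text calls age matched, sorted by the same negative markers with no selection for PDPN. All libraries came from one strain, pCAF came from tumors of a single cell line, and pCAF replicate 3 reads PDPN negative in its selection field although its title and source name put it with pCAF. Tumor and fat pad were digested with different collagenases, so tissue, digestion, labelled age and PDPN selection cannot be told apart from the group. The labels call the replicates biological but name no animals, so a p-value here reflects spread that may be technical.

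Total counts ran from 1885039 to 2184389 in pCAF and from 2223198 to 4990070 in NMF, and in each group 1 library, pCAF replicate 1 or NMF replicate 4, was unlike the others. Levels are in CPM, each count being set against its library's TMM-scaled total. Of 10535 genes tested with edgeR's quasi-likelihood F test, 28.4% passed an adjusted p of 0.05 (Benjamini-Hochberg over all tested genes), 14.3% higher and 14.2% lower in pCAF. Of the 8 genes, 7 reached the count filter, Cd274 and Entpd1 through their NMF libraries: 3 were higher in pCAF, 2 were lower and 2 did not pass. In 5 of these 7 the groups did not overlap, against 40.4% of all tested genes. The median log2 fold change, pCAF over NMF, was 0.60 over the 7 genes and -0.02 over all tested genes. Without pCAF replicate 1 and NMF replicate 4, all 7 passed, 4 higher and 3 lower, while 52.7% of all tested genes passed.

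Fibroblast markers were abundant in both groups; blood endothelial, adipocyte and Schwann cell marker sums were higher in every NMF library than in any pCAF library, while leukocyte, macrophage, epithelial, pericyte and lymphatic sums overlapped. Summed over a list of 13 fibroblast markers, pCAF libraries held 78725 to 89143 CPM and NMF libraries 34160 to 54416 CPM. Of the markers 6 rose and 1 fell, and the list includes Pdpn, on which pCAF were sorted. Pdpn had 987, 281 and 384 CPM in pCAF replicates 1 to 3, the last being the library whose selection field reads PDPN negative. In NMF replicates 1 to 4 it had 49.4, 46.0, 58.4 and 44.1 CPM. Summed over 20 blood endothelial markers, pCAF libraries held 345 to 2074 CPM and NMF libraries 6225 to 9769 CPM. Of the 20, 19 fell, and the remaining one, Cd34, was the most abundant. Cd34 alone had 1743, 290 and 192 CPM in pCAF replicates 1 to 3 and made up most of each pCAF sum. Pecam1, an endothelial adhesion molecule, had 0, 4 and 4 counts in pCAF replicates 1 to 3, against 1110, 934, 785 and 1615 counts in NMF replicates 1 to 4. Of 20 leukocyte markers 9 were tested and 5 fell, with summed levels of 50.4 to 97.4 CPM in pCAF and 51.2 to 256 CPM in NMF; 7 of the 20 had no count in pCAF and none was without a count in NMF. Ptprc (CD45), the leukocyte marker used in the sort, had no count in pCAF and 68 counts in NMF. All 6 tested adipocyte markers of 8 and all 5 tested Schwann cell markers of 6 fell as well. Most of the adipocyte sum in each NMF library was 1 gene, Fabp4 (12859, 15228, 7382 and 1577 CPM in NMF replicates 1 to 4). Of 14 macrophage and dendritic cell markers 9 were tested and 4 fell, of 11 epithelial and carcinoma markers 10 were tested and 4 fell, and none of either list rose. Of 8 pericyte and smooth muscle markers 1 (Des) rose and 3 fell, and of 3 tested lymphatic endothelial markers 1 (Mmrn1) rose and 1 fell.

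**Figure D1:**
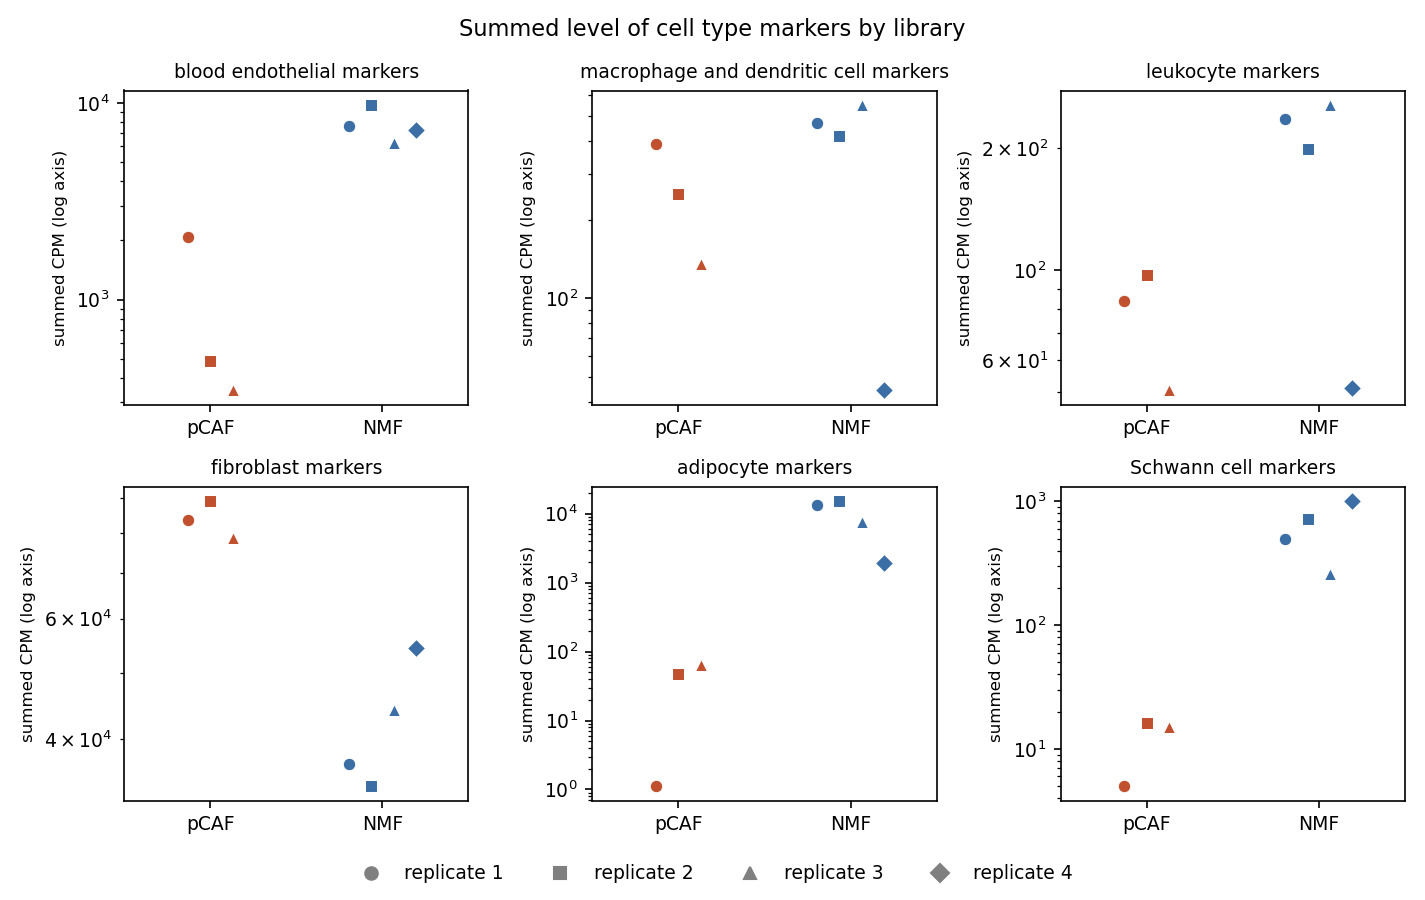
Summed CPM of the marker lists of 6 cell types in every library, pCAF beside NMF, on a log axis; each point is 1 library. Endothelial sums lie between 345 and 2074 CPM in pCAF, most of it Cd34, and between 6225 and 9769 CPM in NMF. Fibroblast sums are higher in every pCAF library than in any NMF library.

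Cd274, Pdcd1lg2 and Entpd1 were the members with few or no counts in pCAF, and all lie on chromosome 19, so the 250 bases before the annotated start of each are shown here. They are from RefSeq (GRCm38.p6, plus strand), at chr19:29367188-29367437, chr19:29410669-29410918 and chr19:40612116-40612365, and capitals mark a GC box, GGGCGG.
Cd274: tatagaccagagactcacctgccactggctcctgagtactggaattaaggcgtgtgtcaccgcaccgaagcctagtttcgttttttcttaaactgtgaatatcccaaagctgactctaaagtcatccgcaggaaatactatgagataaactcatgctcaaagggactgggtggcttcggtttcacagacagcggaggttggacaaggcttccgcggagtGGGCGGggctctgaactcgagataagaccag
Pdcd1lg2: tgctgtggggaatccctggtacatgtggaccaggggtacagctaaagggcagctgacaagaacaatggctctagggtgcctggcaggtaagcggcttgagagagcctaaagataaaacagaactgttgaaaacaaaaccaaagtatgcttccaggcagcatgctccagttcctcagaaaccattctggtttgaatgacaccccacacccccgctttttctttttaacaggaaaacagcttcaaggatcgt
Entpd1: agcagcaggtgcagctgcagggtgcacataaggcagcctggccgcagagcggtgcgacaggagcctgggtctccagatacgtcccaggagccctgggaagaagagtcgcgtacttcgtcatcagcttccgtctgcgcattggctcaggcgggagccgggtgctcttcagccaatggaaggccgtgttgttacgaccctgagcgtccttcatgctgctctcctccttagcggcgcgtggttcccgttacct
The Cd274 window held 1 GC box, and the windows of Pdcd1lg2 and Entpd1 held none. The G and C content was 50.4% before Cd274, 48.4% before Pdcd1lg2 and 62.4% before Entpd1, whose second annotated start, not shown, had 47.2%. Among members that were higher in pCAF, the window of Cd276 held 3 GC boxes and that of Nt5e held 4. Their G and C content was higher, 77.6% and 72.0%, and Lgals1 had no entry. The window of Lgals3 held 1 GC box and that of Lgals9 held none. All windows precede RefSeq starts, which can differ from the GENCODE spans given below. By those spans the windows of Cd276, Nt5e and Lgals3 lay inside the gene, and that of Lgals9 partly so. GC boxes occurred in 32.7% of 32851 such windows. On either strand, the RUNX core TGTGGT, found in 4614 of the windows, and the GAS motif TTCNNNGAA, found in 7.02%, were in no member's window. A longer motif of interferon regulatory factors (IRF), found in 2.98% of windows, had 1 match among the members, before Lgals9. An entry was found for 7 of the 8 genes, and a match of letters is a description and not a binding site.

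Cd274 (ENSMUSG00000016496.7, mm10 chromosome 19, 29367455 to 29388095, plus strand), the gene of PD-L1, had 2.22, 1.13 and 3.33 CPM in pCAF replicates 1 to 3, against 25.1, 26.2, 12.3 and 9.34 CPM in NMF replicates 1 to 4. Every pCAF library was below every NMF library, and NMF replicates 1 and 2 were the highest. The means were 2.22 ± 1.10 CPM in pCAF (SD, n = 3) and 18.2 ± 8.65 CPM in NMF (SD, n = 4). It was 7.98-fold lower in pCAF (log2 fold change -3.00, SE 0.62; edgeR adjusted p = 0.00529). Depth was small on the pCAF side, with 12 counts over the 3 libraries against 212 over the NMF libraries. The call held in all 17 alternatives tried, with adjusted p between 6.38e-05 and 0.0418. Blood endothelial, adipocyte and Schwann cell marker sums were likewise lower in every pCAF library than in any NMF library, while leukocyte sums overlapped. The part of these cell types in the Cd274 level was not tested. In such bulk samples fewer cells of a type and less RNA per cell cannot be told apart.

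Pdcd1lg2 (ENSMUSG00000016498.10, chromosome 19, 29410919 to 29471161, plus strand), the gene of PD-L2, starts 22823 bp after the end of Cd274. It had 0 counts in all 7 libraries and was not tested. A floor of 3 counts over a group is 0.557 CPM in pCAF and 0.228 CPM in NMF, so a level under these was not detectable at this depth.

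Cd276 (ENSMUSG00000035914.11, chromosome 9, 58524298 to 58555437, minus strand), the gene of B7-H3, had 56.6, 94.1 and 79.3 CPM in pCAF replicates 1 to 3, against 21.6, 12.7, 37.3 and 12.7 CPM in NMF replicates 1 to 4. All pCAF libraries were above all NMF libraries, and NMF replicate 3 came nearest. The means were 76.6 ± 18.9 CPM in pCAF (SD, n = 3) and 21.1 ± 11.6 CPM in NMF (SD, n = 4). Cd276 was 3.64-fold higher in pCAF (SE 0.41 on the log2 scale; edgeR adjusted p = 0.00780), and the call held in all 17 alternatives, with adjusted p between 2.63e-04 and 0.0361. The ligands thus moved in opposite directions: Cd276 rose while Cd274 fell.

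Nt5e (ENSMUSG00000032420.8, chromosome 9, 88327197 to 88372092, plus strand), the gene of CD73, had 25.0, 67.6 and 79.8 CPM in pCAF replicates 1 to 3, against 17.8, 21.5, 15.8 and 26.1 CPM in NMF replicates 1 to 4. The groups overlapped, because pCAF replicate 1 was below NMF replicate 4, while pCAF replicates 2 and 3 were well above every NMF library. The means were 57.5 ± 28.8 CPM in pCAF (SD, n = 3) and 20.3 ± 4.55 CPM in NMF (SD, n = 4). Nt5e was 2.81-fold higher in pCAF (log2 fold change 1.49, SE 0.40; edgeR adjusted p = 0.0191). It did not pass once pCAF replicate 2 (adjusted p = 0.0653) or 3 (0.0870), or NMF replicate 1 (0.0608), 2 (0.0532) or 3 (0.0580), was left out.

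Entpd1 (ENSMUSG00000048120.16, chromosome 19, 40612366 to 40741602, plus strand), the gene of CD39, had 0, 2 and 1 counts in pCAF replicates 1 to 3, against 23, 15, 25 and 67 counts in NMF replicates 1 to 4. These are 0, 1.13 and 0.554 CPM in pCAF and 8.88, 6.33, 8.80 and 12.5 CPM in NMF. Every pCAF library was below every NMF library, and Entpd1 was nearly unread in pCAF. With 3 pCAF counts against 130 NMF counts, the NMF level was 17.7 times the pCAF level (95% counting interval 5.94 to 87.1). The edgeR adjusted p was 0.00485, and the call held in the 16 alternatives that could test the gene. The ratio was 35.7 (6.29 to 1419) without pCAF replicate 2, whose 2 counts make up most of the pCAF sum, and 9.64 (3.15 to 47.99) without pCAF replicate 1 and NMF replicate 4. Endothelial cells and leukocytes are known carriers of Entpd1, and 19 of 20 endothelial and 5 of 9 tested leukocyte markers fell in pCAF as given above; their part in this difference was not tested. Of the 2 member enzymes, Nt5e was thus higher and Entpd1 lower in pCAF.

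**Figure D2:**
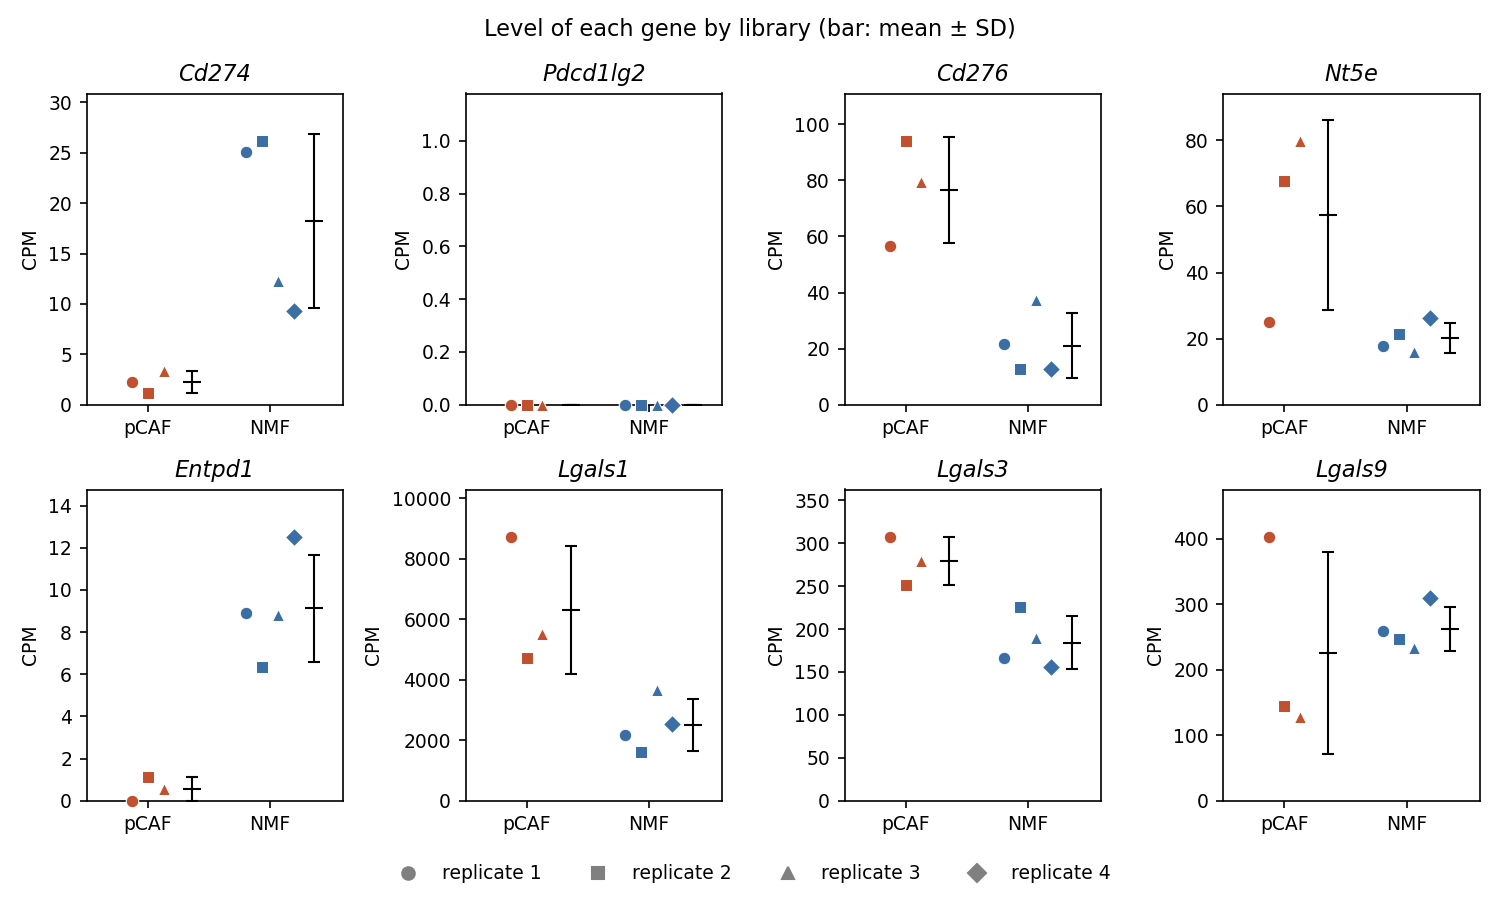
CPM of each gene in every library, with pCAF left of NMF; marker shapes give the replicate number and bars the mean ± SD (n = 3 pCAF, n = 4 NMF). Cd274 and Entpd1 are lower in all pCAF libraries, Cd276, Lgals1 and Lgals3 are higher in all of them, and pCAF replicate 1 is the lowest pCAF library for Nt5e and the highest for Lgals9.

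Lgals1 (ENSMUSG00000068220.6, chromosome 15, 78926725 to 78930465, plus strand), the gene of galectin-1, had 8722, 4715 and 5528 CPM in pCAF replicates 1 to 3, against 2177, 1624, 3646 and 2548 CPM in NMF replicates 1 to 4. All pCAF libraries were above all NMF libraries, with pCAF replicate 1 the highest. The means were 6322 ± 2118 CPM in pCAF (SD, n = 3) and 2499 ± 854 CPM in NMF (SD, n = 4). Lgals1 was 2.53-fold higher in pCAF (log2 fold change 1.34, SE 0.34; edgeR adjusted p = 0.0157). The call was lost without NMF replicate 1 (adjusted p = 0.0598) or NMF replicate 2 (0.0515), and held in the other 15 alternatives.

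Lgals3 (ENSMUSG00000050335.17, chromosome 14, 47367751 to 47386160, plus strand), the gene of galectin-3, had 307, 252 and 279 CPM in pCAF replicates 1 to 3, against 166, 225, 190 and 155 CPM in NMF replicates 1 to 4. The groups did not overlap, but the gap was small. The means were 279 ± 27.7 CPM in pCAF (SD, n = 3) and 184 ± 31.1 CPM in NMF (SD, n = 4), with a log2 fold change of 0.60 (SE 0.24; edgeR adjusted p = 0.0850). It did not pass the test, but did with DESeq2 (adjusted p = 0.0489) and without both pCAF replicate 1 and NMF replicate 4 (edgeR adjusted p = 0.0434).

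Lgals9 (ENSMUSG00000001123.15, chromosome 11, 78962974 to 78984946, minus strand), the gene of galectin-9, had 403, 144 and 128 CPM in pCAF replicates 1 to 3, against 260, 247, 233 and 309 CPM in NMF replicates 1 to 4. The groups overlapped: pCAF replicate 1 was above every NMF library, and pCAF replicates 2 and 3 were below every one. The means were 225 ± 154 CPM in pCAF (SD, n = 3) and 262 ± 33.0 CPM in NMF (SD, n = 4), with a log2 fold change of -0.22 (SE 0.39; edgeR adjusted p = 0.718). One library decides this result: without pCAF replicate 1 the log2 fold change was -0.95 (adjusted p = 0.00765), and without both libraries that stood apart it was -0.86 (4.70e-04). Macrophage and dendritic cell markers summed to 390, 251 and 135 CPM in pCAF replicates 1 to 3. In NMF replicates 1 to 4 they summed to 470, 420, 551 and 44.3 CPM. Most of the sum in pCAF replicate 1 was Cd74 (155 CPM) and H2-Aa (168 CPM). The part of these markers in the Lgals9 level was not tested.

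**Figure D3:**
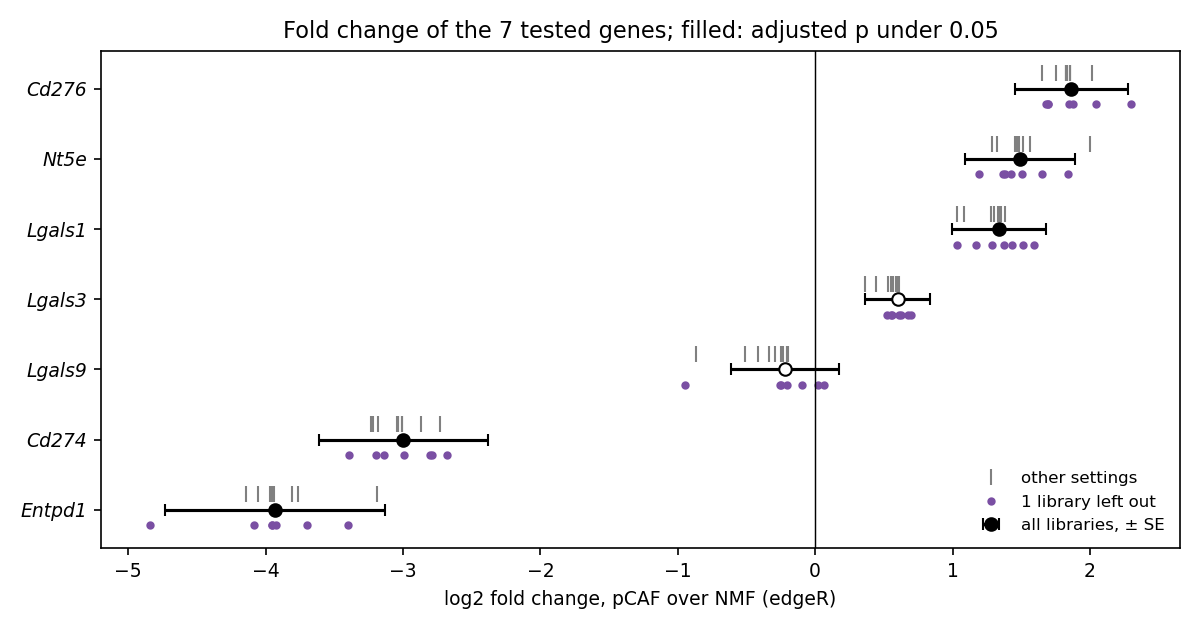
Fitted log2 fold change, pCAF over NMF, of the 7 tested genes with its SE; filled points have an adjusted p under 0.05, ticks above are other settings and dots below are fits with 1 library left out. Cd274 (-3.00) and Entpd1 (-3.93, from 3 pCAF counts) lie left of 0, Cd276, Nt5e and Lgals1 lie right of it, and Lgals3 and Lgals9 are open.

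As a share of the counts of the 3 galectins, Lgals1 took 92.5%, 92.3% and 93.1% in pCAF replicates 1 to 3, against 83.6%, 77.5%, 89.6% and 84.6% in NMF replicates 1 to 4. Lgals9 took 4.27%, 2.82% and 2.16% in pCAF, against 9.97%, 11.8%, 5.73% and 10.2% in NMF. Even pCAF replicate 1, with its high Lgals9 level, had a smaller Lgals9 share than any NMF library. That library also had the highest Lgals1 level (8722 CPM). Lgals3 took 3.26%, 4.93% and 4.70% in pCAF, against 6.38%, 10.8%, 4.67% and 5.16% in NMF, and the groups overlapped. The mean share of Lgals1 was 8.80 percentage points higher in pCAF and that of Lgals9 6.35 points lower. An exact permutation test on the difference of means, two-sided, gave p = 0.0571 for both, and 0.2 for Lgals3; adjusted over the 3 shares these were 0.0857, 0.0857 and 0.2. None passed 0.05, and the smallest p that 3 against 4 libraries allow is 0.0286. The 3 shares divide 1 total, so the Lgals1 and Lgals9 differences are not separate results.

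**Figure D4:**
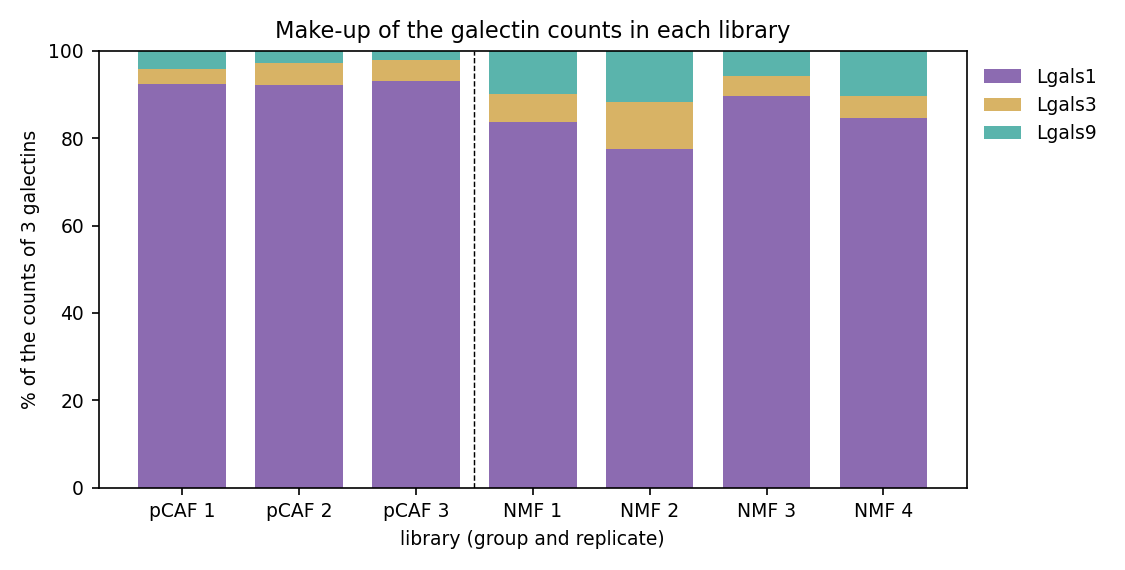
Share of the summed counts of Lgals1, Lgals3 and Lgals9 taken by each gene, in percent, per library, with pCAF left of NMF. Lgals1 takes 92.3% to 93.1% in pCAF and 77.5% to 89.6% in NMF.

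Of 23 other checkpoint ligands and related inhibitory genes, 12 were tested, 4 were higher, 3 were lower and 5 did not pass. Over all tested genes, 14.3% were higher and 14.2% lower. The median log2 fold change of this list was -0.63, against -0.02 over all tested genes. Arg1, which depletes arginine, averaged 79.0 ± 22.2 CPM in pCAF and 5.50 ± 3.08 CPM in NMF (14.7-fold higher, edgeR adjusted p = 2.50e-04). Pvr (CD155), a ligand of TIGIT and CD226, averaged 192 ± 75.6 CPM in pCAF and 54.7 ± 4.71 CPM in NMF (3.50-fold higher, edgeR adjusted p = 0.00132). Its relative Pvrl2 (Nectin2) was 3.17-fold higher (edgeR adjusted p = 0.00551), and Cd40, a receptor of the TNF receptor family, was 3.55-fold higher (0.0466), a call lost with library totals (0.0775) or upper quartile factors (0.0524) as scaling, with no filter (0.0504) and without pCAF replicate 1 or 2 or NMF replicate 1, 3 or 4 (0.0755 to 0.121). Without both pCAF replicate 1 and NMF replicate 4, Cd40 was 2.08-fold higher and did not pass (0.0589). Icosl, the ligand of ICOS, had 2 counts in pCAF and 121 in NMF, and the NMF level was 24.8 times the pCAF level (95% counting interval 6.71 to 207; edgeR adjusted p = 0.00224). Ceacam1, an adhesion molecule, had no count in pCAF and 281 in NMF, so that it was at least 38.3-fold lower, taking 3 counts in the group as the limit (at least 25.5-fold without pCAF replicate 1 or 3, and at least 25.7-fold without pCAF replicate 2; edgeR adjusted p = 6.69e-04). Its 3' end is near-identical to that of Ceacam2, so the counts of the pair are uncertain. The row 4632428N05Rik, an older symbol of Vsir (VISTA), was 3.33-fold lower (edgeR adjusted p = 0.00696). Cd47, which signals against phagocytosis, averaged 258 ± 127 CPM in pCAF and 407 ± 74.8 CPM in NMF and did not pass (adjusted p = 0.228), nor did Cd200 (0.274).

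Of 14 checkpoint receptors, most of them lymphocyte genes, 3 reached the filter. Of these 1 was higher, against 14.3% of all tested genes: Tnfrsf9 (4-1BB), a costimulatory receptor. It averaged 35.1 ± 13.0 CPM in pCAF and 2.20 ± 1.49 CPM in NMF (16.9-fold, edgeR adjusted p = 0.00354). Sirpa, the receptor of Cd47, averaged 63.7 ± 14.4 CPM in pCAF and 112 ± 25.6 CPM in NMF (edgeR adjusted p = 0.0566), and every pCAF library was below every NMF library. It passed as lower with library totals (0.0156) or upper quartile factors (0.0408) as scaling, with DESeq2 (0.0335), with thinned libraries (0.0486), without pCAF replicate 1 (0.0148) and without NMF replicate 4 as well (0.00185). Lag3 had 49, 1 and 0 counts in pCAF replicates 1 to 3, against 14, 11, 3 and 32 counts in NMF replicates 1 to 4; it was high in pCAF replicate 1 alone, and without that library its log2 fold change was -3.75 (edgeR adjusted p = 0.0414).

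Of 13 genes that control the PD-L1 level, among them the interferon gamma receptor, JAK-STAT and CMTM genes, all were tested. None was higher, 1 was lower and 12 did not pass, against 14.3% higher and 14.2% lower over all tested genes. The lower one was Ifngr1, the ligand-binding chain of the interferon gamma receptor, which averaged 53.1 ± 23.9 CPM in pCAF and 138 ± 39.9 CPM in NMF (2.59-fold lower, edgeR adjusted p = 0.0201). The groups overlapped, and the gene did not pass once pCAF replicate 3 (adjusted p = 0.0788) or NMF replicate 1 (0.0592), 2 (0.0586) or 3 (0.0529) was left out. Irf1, a transcription factor induced by interferon, averaged 142 ± 5.60 CPM in pCAF and 262 ± 124 CPM in NMF (0.154). Its groups overlapped because NMF replicate 4 was below every pCAF library; without that library Irf1 was 2.22-fold lower in pCAF and passed (edgeR adjusted p = 0.00611), and without pCAF replicate 1 as well it passed too (5.60e-05). Its 3' end overlaps Gm17334 on the other strand. Socs3, a feedback inhibitor of JAK-STAT signalling, averaged 392 ± 152 CPM in pCAF and 505 ± 273 CPM in NMF (0.630). Other genes that did not pass ran both ways, and the list's median log2 fold change was -0.05. Ifngr2 averaged 153 ± 57.8 CPM in pCAF and 88.8 ± 16.3 CPM in NMF (edgeR adjusted p = 0.0718), with every pCAF library above every NMF library. Jak2 averaged 92.9 ± 22.9 CPM and 48.9 ± 15.8 CPM (0.0550), and its groups overlapped. Irf2 averaged 13.9 ± 9.17 CPM and 34.5 ± 2.85 CPM (0.0591), with every pCAF library below every NMF library.

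Of 31 other genes of extracellular nucleotides and adenosine, 19 were tested, 2 were higher, 5 were lower and 12 did not pass. The shares over all tested genes were 14.3% higher and 14.2% lower. The median log2 fold change of this list was -0.03. Enpp1 and Bst1 did not reach the count filter and were not tested. Enpp1 had 1.11, 15.8 and 26.1 CPM in pCAF replicates 1 to 3, against 3.09, 0.422, 1.06 and 1.49 CPM in NMF replicates 1 to 4. Bst1 had 0, 28.2 and 26.6 CPM in pCAF, against 0.773, 0.844, 0 and 0 CPM in NMF. Slc29a1, a nucleoside transporter that takes adenosine into cells, averaged 15.1 ± 7.13 CPM in pCAF and 205 ± 29.9 CPM in NMF (log2 fold change -3.76, edgeR adjusted p = 8.65e-05); its 3' end overlaps Gm17080 on the other strand, and whether counting used strand was not given. Dpp4, a surface peptidase that binds adenosine deaminase in human cells, averaged 6.51 ± 2.78 CPM in pCAF and 44.1 ± 12.5 CPM in NMF (6.73-fold lower, edgeR adjusted p = 0.00119). P2ry14, a receptor for UDP-sugars, was 17.5-fold lower (edgeR adjusted p = 0.00368), and Entpd2, an ecto-ATPase related to Entpd1, was 3.53-fold lower (0.00503), although its 3' end overlaps Npdc1 on the same strand. Without pCAF replicate 2, 1 count of P2ry14 was left in pCAF, and the NMF level was 54.6 times the pCAF level (95% counting interval 9.68 to 2166). Adora2a, an adenosine receptor of T cells and endothelium, had 3 counts in pCAF and 152 in NMF, 20.7 times the pCAF level (95% counting interval 6.96 to 102; edgeR adjusted p = 0.0181, but 0.0547 without pCAF replicate 3 and 0.252 with limma-voom). The ratio was 41.7 (7.37 to 1657) without pCAF replicate 2, 33.6 (11.3 to 165) without NMF replicate 4 and 13.8 (4.63 to 67.6) without pCAF replicate 1, and the gene fell below the filter without NMF replicate 1, 2 or 3. Panx1, a channel that lets ATP out of cells, averaged 109 ± 69.7 CPM in pCAF and 19.0 ± 3.70 CPM in NMF (5.68-fold higher, edgeR adjusted p = 0.00140), with a log2 fold change of 1.83 without pCAF replicate 1 against 2.51 with it. Ada, which deaminates adenosine, was 3.03-fold higher (edgeR adjusted p = 0.0303), a call lost with library totals as scaling (0.0564) and without pCAF replicate 2 or 3 or NMF replicate 1 or 2 (0.0533 to 0.0968). Adk, which phosphorylates adenosine, averaged 73.2 ± 10.1 CPM in pCAF and 71.6 ± 11.4 CPM in NMF and did not pass (0.945), nor did P2rx4, an ATP-gated channel whose 3' end has many like copies (68.1 ± 36.4 CPM in pCAF and 79.0 ± 6.50 CPM in NMF; 0.676, but 0.0242 and lower in pCAF without pCAF replicate 1).

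Of 17 other galectins and glycoproteins that carry their ligands, 11 were tested, 4 were higher, 1 was lower and 6 did not pass. Among all tested genes, 14.3% were higher and 14.2% lower. The list had a median log2 fold change of 0.30. Cd44, a hyaluronan receptor that also binds galectin-9, averaged 134 ± 43.2 CPM in pCAF and 6.44 ± 5.01 CPM in NMF (19.8-fold higher, edgeR adjusted p = 4.67e-04). Lgalsl, a galectin-related protein, was 3.85-fold higher (edgeR adjusted p = 0.00103), and Lamp2, a lysosomal glycoprotein, was 2.92-fold higher (0.00221). Itgb1, an integrin chain, averaged 594 ± 67.7 CPM in pCAF and 332 ± 74.0 CPM in NMF (edgeR adjusted p = 0.0355), a call lost with library totals as scaling (0.109), with no filter (0.0630) and without pCAF replicate 2 or 3 or NMF replicate 1, 2 or 3 (0.0720 to 0.109). Nrp1, a coreceptor that galectin-1 can bind, was 1.88-fold lower (edgeR adjusted p = 0.0244), a call lost without pCAF replicate 2 or NMF replicate 1 or 2 (adjusted p 0.0639 to 0.0850). Lgals3bp, a secreted glycoprotein bound by galectin-3, averaged 565 ± 220 CPM in pCAF and 569 ± 119 CPM in NMF (0.982). Lamp1, the relative of Lamp2, averaged 630 ± 254 CPM in pCAF and 724 ± 37.0 CPM in NMF (0.652, but 0.0449 and lower in pCAF without pCAF replicate 1).

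**Figure D5:**
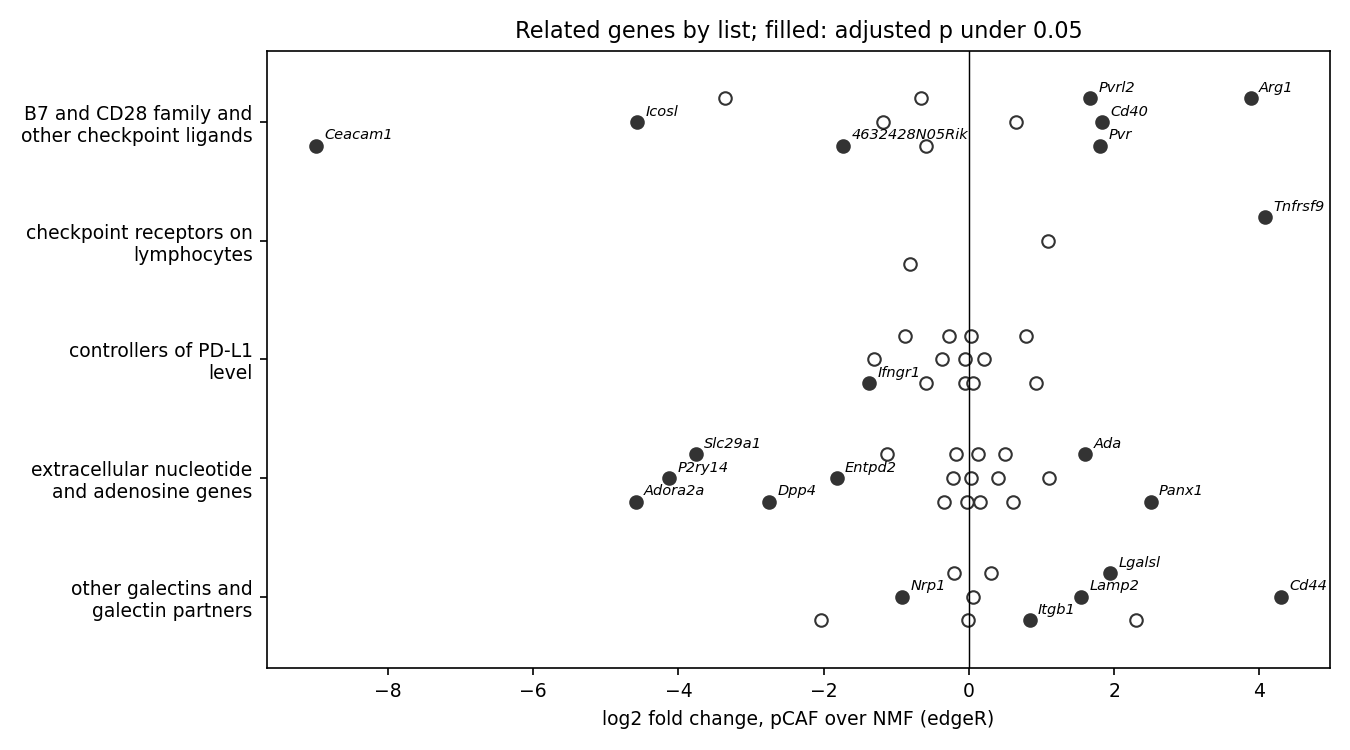
Fitted log2 fold change, pCAF over NMF, of each tested gene of the 5 related lists; filled points have an adjusted p under 0.05 and carry the gene's name. Arg1, Tnfrsf9 and Cd44 lie farthest right; the value drawn for Ceacam1, which has no pCAF count, depends on the model's prior count.

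As a description, with no test, the genes whose log2 CPM followed each member most closely over the 7 libraries were found among 8502 others with a mean of at least 10 CPM (8503 for Entpd1). These libraries differ by group and by depth, which all such correlations share. For Cd274 the closest were 2510002D24Rik (Pearson r = 0.990), Stab1 (0.989) and Fxyd3 (0.988). For Entpd1 they were Igfbp5 (0.997), Irf4 (0.996) and Csnk1d (0.994). For Cd276 they were Cdca3 (0.990), Myef2 (0.984) and Dym (0.983), and for Nt5e Mgat2 (0.998), Rab34 (0.989) and Hnrnpk (0.987). For Lgals1 they were Atad2b (0.989), Maged2 (0.988) and Slc38a10 (0.980), for Lgals3 Uqcr11 (0.990), Mycbp (0.986) and Epb4.1l4aos (0.979), and for Lgals9 Arsa (0.991), Pip5k1c (0.990) and Wdr11 (0.990).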

How the data were processed

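Per the labels, 3' end mRNA libraries were made from sorted cells. The values deposited by the authors were raw counts per gene symbol. The submitters' processing notes name STAR 2.4.2a, bcl2fastq, HTSeq and the mm10 build without saying what each did. The annotation, strand setting, molecular identifiers and filters are not given in the sources used here. The 8 genes were matched by exact symbol and list genes also by older symbols; 7867 of 24421 rows were at 0 in every library, and 2 symbols were duplicated.

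The counts were filtered with filterByExpr and scaled with TMM factors in edgeR 4.0.16 (R 4.3.3). Its robust quasi-likelihood F test compared the groups, two-sided, and p-values were adjusted by Benjamini-Hochberg with a threshold of 0.05; the SE of a log2 fold change is its size over the square root of F. Log2 CPM used a prior count of 2. Where a group had no count, 3 counts were put in its place and the fold is a bound. With 1 to 3 counts the ratio has an exact 95% counting interval. Both cover counting error only. Positions are from GENCODE M21. The last 1000 bp of each gene were checked for overlapping exons and the last 300 bp for copies with blastn 2.17.0 (at least 80 bp at 95% identity). Tables and figures used Python 3.11.15, scipy 1.17.1, pandas 2.3.3 and matplotlib 3.10.9.

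The genes, the 5 related lists and the 9 marker lists were chosen with earlier results of these data known. Of each related list the text names up to 4 changed genes by adjusted p, up to 2 in the opposite direction and up to 2 of the most abundant that did not pass. Pvrl2, Cd40, Entpd2, Adora2a, Itgb1, Lag3, Ifngr2, Jak2, Irf2, Enpp1, Bst1, Fabp4, Pecam1 and Ptprc are named as well. Some of these were chosen after their values were seen. Alternatives were DESeq2 1.42.0 and limma-voom (limma 3.58.1), other scalings and filters, thinning every library to 1885039 counts, the replicate number as a block and libraries left out. The tests were also run on simulated counts with planted changes: edgeR and limma-voom kept false calls within the limit set for that check, while DESeq2 exceeded it, so calls by DESeq2 alone are the less firm ones. The limit was made binding for edgeR only, after the DESeq2 result had been seen. Groups follow the titles and source names.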

Additional observations from a re-analysis of the deposited data

Results flagged for a closer look

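Among 42 sets of NMF values examined, a sample far from the others of its group was found in 2; chance alone gives about 1 in 20. Cd200, a ligand that inhibits myeloid cells, was at 119 CPM in NMF replicate 2, while the other NMF libraries lay between 65.1 and 71.5 CPM. Ifngr1 was at 78.8 CPM in NMF replicate 4, while the other NMF libraries lay between 151 and 166 CPM. The gap to the nearest library, as a share of the range, was 0.883 for Cd200 and 0.837 for Ifngr1, above Dixon's 95% critical value for 4 samples in both. Groups of 3 are too small for this comparison, so pCAF was not examined.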

How the results depend on the processing

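Cd274, Cd276 and Entpd1 kept their direction and their call in every alternative that could test them; with a mean of at least 10 CPM required, Entpd1 was not tested and 1 of the 8 genes was lower instead of 2. Leaving out 1 library at a time, 1 to 3 of the 8 genes were higher and 2 to 3 lower, and over all genes 1016 to 2021 were higher and 979 to 2187 lower, against 1503 and 1491. Without both pCAF replicate 1 and NMF replicate 4 those were 2802 higher and 2913 lower. Scaling by library totals gave 1122 higher and 1902 lower, 37.1% of calls higher against 50.2%, and gave all genes a median log2 fold change of -0.26; the direction of all 7 tested genes among the 8 was unchanged by any scaling.

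The replicate numbers share no animal or batch in the labels, and libraries with the same number did not deviate together (correlations -0.09, 0.08 and -0.01). With the number as a replicate block 978 genes were higher and 1023 lower, the calls of Nt5e (adjusted p = 0.0582), Cd40 (0.170), Ada (0.0940) and Nrp1 (0.0807) were lost, Irf1 passed (0.0270), no galectin partner was lower, and 2 controllers of PD-L1 were lower.

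In the lists, other checkpoint ligands had 5 lower genes with DESeq2 and 5 without both libraries (3 in the report). Over all tested genes, 34.8% passed with DESeq2 and 52.7% without both libraries, against 28.4% in the report. That share was 18.6% without a filter, 19.6% to 38.1% leaving out 1 library, and 27.1% to 30.3% in the other settings named here. Checkpoint receptors had 2 higher without a filter, and 1 lower with library totals, upper quartile factors, DESeq2 or thinned libraries, 0 to 2 leaving out 1 library and 2 without both. Controllers of PD-L1 had 1 higher with DESeq2, limma-voom, thinned libraries or without both libraries, and 0 to 1 leaving out 1 library; 2 were lower with library totals, DESeq2, limma-voom or no filter, 0 to 2 leaving out 1 library and 5 without both. Nucleotide genes had 1 higher with library totals, 4 without a filter, 1 to 6 leaving out 1 library and 6 without both, and 3 lower at a mean of at least 10 CPM. Galectin partners had 0 to 2 lower leaving out 1 library and 3 without both.

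Signs turned for 5 genes that had not passed. Leaving out 1 library, Lgals9 ranged from -0.95 to 0.0643 on the log2 scale (0.0171 and 0.0643 without pCAF replicates 2 and 3). Lag3 was at -1.11 with limma-voom, -0.18 with the replicate block, -3.47 without both libraries, and between -3.75 and 1.68 leaving out 1 library (-3.75 without pCAF replicate 1). P2rx4 ranged from -0.75 to 0.0352 leaving out 1 library (0.0352 without pCAF replicate 3). Adk was at -0.20 with library totals, -0.0095 with upper quartile factors and -0.0054 without a filter, and from -0.06 to 0.24 leaving out 1 or both libraries. Lgals3bp was at 0.0265 with the replicate block and from -0.38 to 0.19 leaving out 1 library. The cause was not tested. Depth limits Entpd1, Cd274 and Pdcd1lg2 most, with 3, 12 and 0 counts in pCAF.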
